A study of Mus musculus with 8 samples.

Results

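The genes described here encode the proteins of the mitochondrial ribosome. They were taken from the deposited tables by symbol, as every gene named Mrpl (large subunit) or Mrps (small subunit) followed by a number and at most 1 letter, which gave 78 of the 21949 genes in the tables. Each gene was represented by its transcript with the highest mean fragment count over the 8 libraries. All 78 passed the filter on low counts and stand among the 16051 genes tested. Total RNA and ribosome-protected fragments (footprints, the pieces of mRNA that a ribosome shields from nuclease) had been sequenced from testes, taken on day 24 after birth from mice of strain C57BL/6. The genotypes were wild type (WT) and Miwi-null, that is, without MIWI, the product of Piwil1 and a partner of piRNAs in male germ cells. Each of the 4 groups (WT RNA, null RNA, WT footprints, null footprints) had 2 libraries. The labels do not describe the null allele or name animals or litters, so p-values measure only how far these libraries spread, which may be technical. In RNA of a tissue, fewer cells of a type and less RNA per cell cannot be told apart.

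Mitochondria carry ribosomes of their own, descended from those of bacteria, which translate the few proteins still encoded in mitochondrial DNA. All protein subunits of these ribosomes are encoded in the nucleus, translated by cytosolic ribosomes and imported, so the footprints on their mRNAs come from cytosolic translation. Some subunits descend from bacterial ribosomal proteins, and others were added in the mitochondrial lineage. The mitochondrial ribosome makes core subunits of the respiratory chain, on which germ cells past the blood-testis barrier depend.

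The libraries held between 11130949 and 28334622 counts over genes, so that a single count stood for 0.03395 to 0.08932 CPM (counts scaled to a common library total, here after TMM scaling of library sizes). Piwil1 RNA had 552 and 533 CPM in the WT libraries against 3.52 and 2.27 in the null libraries, as the genotype labels call for. The footprint libraries stood apart in a way that neither genotype nor replicate number gives: WT replicate 1 resembled null replicate 2, and WT replicate 2 resembled null replicate 1. Across the 78 genes, the log2 ratio of replicate 1 to replicate 2 in WT footprints correlated with that in null footprints at r = -0.894 (Spearman -0.863), against -0.048 in RNA. Genes are not independent replicates and this is a description. WT replicate 1 and null replicate 2 were also the most deeply sequenced libraries. In 14 genes the WT footprint replicates lay more than 1.5-fold apart, and in 14 of these 14 the null replicates were ordered the other way. Mrpl33 had the widest gap, with footprints at 27.5 and 7.66 CPM in WT and 7.06 and 18.4 CPM in null. The model used for the tests treats this spread as replicate error of both assays. RNA replicates were close: the median gene differed 1.1-fold between the WT RNA libraries and 1.07-fold between the null ones, and in neither group did any gene reach 1.5-fold.

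**Figure D1:**
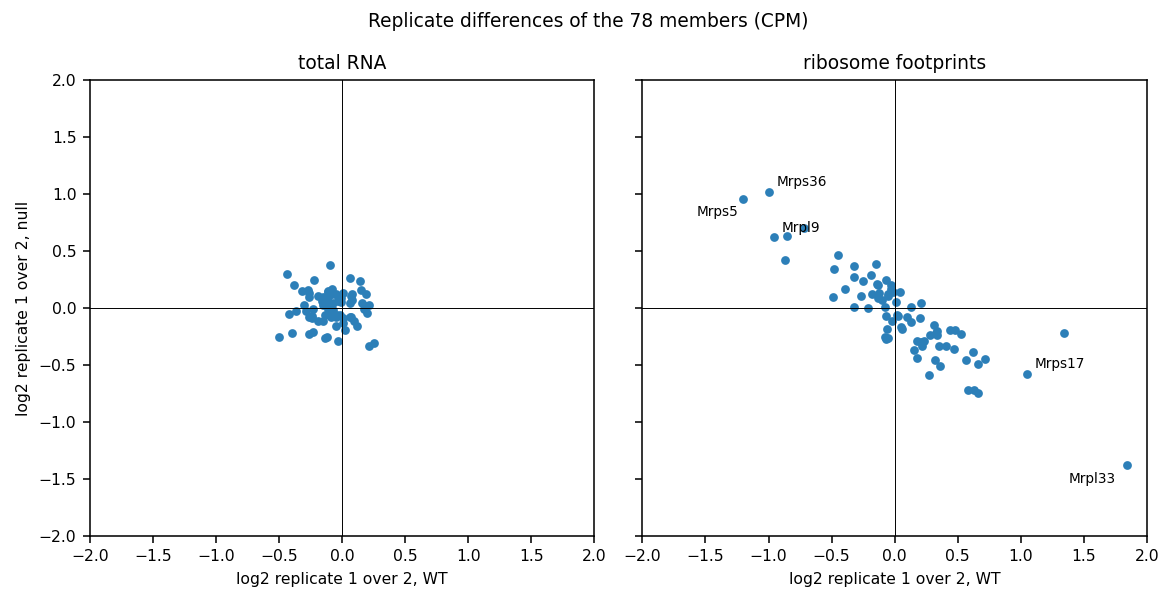
Each point is 1 of the 78 genes; the x axis gives the log2 ratio of replicate 1 to replicate 2 in WT and the y axis the same ratio in null, in CPM, for total RNA (left) and footprints (right). The footprint points run along the falling diagonal (r = -0.894), whereas the RNA points form a cloud around 0 (r = -0.048).

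Mitochondrial ribosomal protein mRNAs stood above the median gene in both RNA level and ribosome coverage in WT testis. Their median RNA level per coding length was 31.3 and 32.9 FPKM (fragments scaled to coding length and library total) in the WT libraries, beside 9.73 and 9.74 over all genes tested. Their median translational efficiency (TE, the footprint FPKM divided by the RNA FPKM) was 2.52 and 2.07 in WT, beside 1.29 and 1.2 over all genes. The nearest set for comparison was the cytosolic ribosomal protein genes, of which 81 of 82 were tested. Those tested had a much higher median RNA level, 281 and 306 FPKM, and a lower median TE of 0.905 and 0.915.

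The members' RNA levels spanned a wide range. Mrpl54, a large-subunit protein with no bacterial counterpart, had the highest level in WT, 179 ± 19.5 FPKM (SD, n = 2). It was followed by the mitochondria-specific Mrpl57 (152 ± 4.92) and Mrpl51 (150 ± 30.1), whose levels did not differ beyond their spread. Mrpl20 and Mrpl39 stood next, at 127 ± 18.3 and 107 ± 7.57 FPKM. At the low end, Mrpl50 (6.72 ± 1.3 FPKM), Mrps27 (7.13 ± 0.655), Mrps35 (7.75 ± 0.292) and Mrpl19 (7.93 ± 0.305) lay within each other's spread, and Mrpl49 reached 11.3 ± 2.05. Most of these proteins are present in equal numbers in the finished ribosome, as background, whereas their mRNA levels were far from equal.

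TE varied among members at least as widely as RNA. Mrps14, a small-subunit protein of the head, had the highest WT TE, 14.8 and 12.9 in replicates 1 and 2. Mrpl50 had 11.2 ± 2.35 (SD, n = 2), Mrps6 8.69 ± 0.64, Mrpl49 7.99 ± 1.03 and Mrpl52 7.54 ± 0.0407. The lowest value was that of Mrpl23, a protein of the peptide exit tunnel, at 0.342 ± 0.186, with only 18 footprint counts in WT replicate 2 (76 in WT replicate 1). Mrpl57 (0.409 ± 0.0124), Mrpl12 (0.616 ± 0.0614), Mrpl55 (0.718 ± 0.183) and Mrps36 (0.828 ± 0.291) came next. Mrpl50 and Mrpl49 had a low RNA level and Mrpl57 a high one. The mean WT footprint levels of Mrpl50, Mrpl49 and Mrpl57 were 73.9, 89.1 and 62.2 FPKM. They lay near the members' medians of 73.7 and 69.8 FPKM in the WT footprint libraries. Across the 78 genes WT RNA level and WT TE correlated at r = -0.373 (Spearman -0.391; -0.133 over all genes), but the RNA level is a term of both quantities. In null testis Mrps14 had a TE of 13.6 and 13.8 and Mrpl23 of 0.57 and 0.567.

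**Figure D2:**
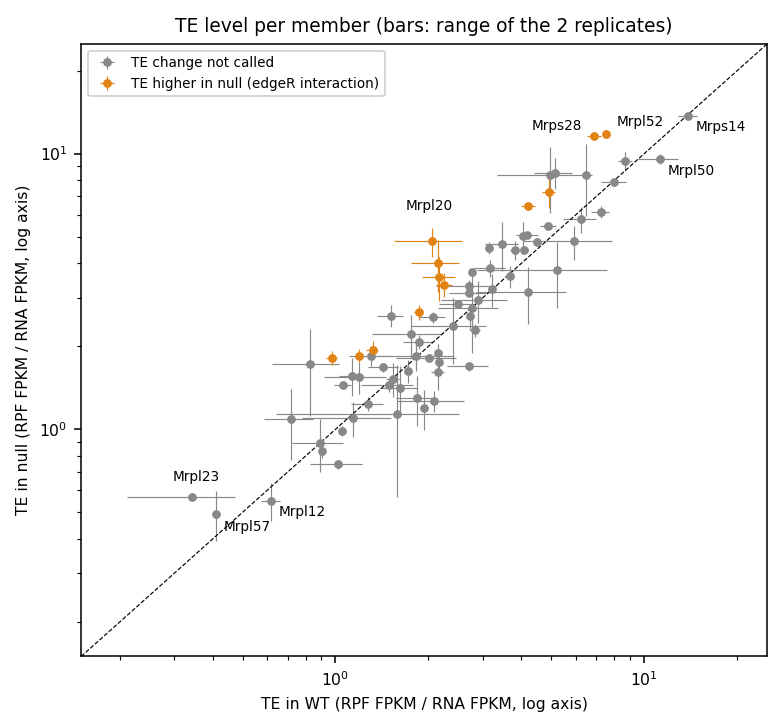
TE (footprint FPKM over RNA FPKM, no unit) of each of the 78 genes in WT (x axis) and null (y axis), both on log axes, as the mean of 2 replicates with bars for their range and a dashed line for equality. Genes lie along the line from Mrpl23 and Mrpl57 at the bottom to Mrps14 and Mrpl50 at the top, and the 12 genes with higher TE in null (orange) lie above it.

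The RNA comparison asked which mRNAs differed in abundance without MIWI. RNA of 24 of the 78 mitochondrial ribosomal protein genes fell and that of 2 rose, while 52 were not called at an adjusted p under 0.05. Over all genes tested 37.3% were called, 20.8% lower and 16.5% higher. The members' median log2 change, null minus WT, was -0.308, with quartiles of -0.54 and -0.0481, beside a median of -0.0737 over all genes. Both null libraries lay below both WT libraries in 54 members and above them in 13, where 43.1% and 34.7% of all genes did so. In summed CPM the 78 mRNAs went from 2302 and 2441 in WT to 1955 and 1946 in null. The cytosolic ribosomal protein genes also shifted down, with 35 of 81 tested lower, 1 higher and a median of -0.488.

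Several limits bear on that count. The model pools the spread of both assays, and with the RNA libraries fitted alone 36 members were lower and 9 higher, where 29.6% and 29.7% of all genes were called in those directions. Without TMM scaling 17 were lower and 5 higher, beside 16% and 19.6% of all genes. Members have short coding sequences (median 582 bases, beside 1362 over all genes), and a fit without the trend of RNA change on coding length gave a median of -0.077, with 12 members lower and 8 higher (18% of all genes in each direction). Leaving out either WT RNA library gave 16 calls in all, and leaving out either null RNA library gave 14, where 19.9% to 23.9% of all genes were called.

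Markers of testicular cell types moved between the same libraries. All 10 late spermatid markers, among them the protamines and transition proteins, fell in RNA, from 17584 and 17186 summed CPM in the WT libraries to 2282 and 2276 in the null libraries. Of 10 spermatocyte markers 6 rose, from 866 and 963 to 1628 and 1578 CPM. Sertoli markers had 9 of 10 lower (1639 and 1614 to 1146 and 1158 CPM), myoid and stromal markers 8 of 10 lower (696 and 667 to 256 and 257), and spermatogonial markers 5 lower and 1 higher (192 and 190 to 136 and 137). RNA of 4 of 10 Leydig markers rose and that of 1 fell (1258 and 1254 to 2325 and 2333 CPM). Macrophage markers had 2 higher and 1 lower (241 and 260 to 206 and 200), and endothelial and blood markers had 4 lower (126 and 107 to 82.9 and 79.3). No marker in these lists was at 0 in all libraries of a group. Their part in the changes of mitochondrial ribosomal protein genes was not tested.

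Among the large-subunit genes, RNA fell in 14 of 51 (27.5%) and rose in 2 (3.92%), beside 20.8% and 16.5% of all genes. Their median log2 change was -0.221. Mrpl54 (chromosome 10, 81264722 to 81266926, GRCm38) had 84.3 and 98.9 CPM in the WT RNA libraries and 28.4 and 28.7 CPM in the null ones. The null values were thus close together and well below both WT values. The change was -1.68 ± 0.17 (SE) on the log2 scale, adjusted p = 0.000151 by edgeR's quasi-likelihood test. Mrpl20 (chromosome 4, 155802878 to 155808831), whose bacterial counterpart joins the large subunit early in assembly, had 64.5 and 79.4 CPM in WT and 27.6 and 27 CPM in null. Its groups did not overlap either, and its RNA fell by 1.40 ± 0.16 (adjusted p = 0.000303).

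The other large-subunit genes with the deepest falls were small proteins. Mrpl42, specific to mitochondria, had 18.6 and 19.7 CPM in WT and 9.88 and 9.07 CPM in null, a fall of 1.01 ± 0.21. Mrpl36, a short protein with a bacterial counterpart, had 16.5 and 18.2 CPM in WT and 8.42 and 10.1 CPM in null, a fall of 0.90 ± 0.14. Mrpl55 had 34.1 and 29.5 CPM in WT and 17.2 and 16.9 CPM in null, a fall of 0.90 ± 0.27. Mrpl32, which is matured by the mitochondrial m-AAA protease before it is built into the ribosome, had 25.6 and 30.2 CPM in WT and 16.2 and 17 CPM in null, a fall of 0.75 ± 0.14. In all 4 the null values lay below the WT values, yet 2 calls depended on the libraries used. That of Mrpl55 was lost without any single RNA library (adjusted p = 0.164 and 0.0815 without WT replicates 1 and 2, and 0.127 and 0.131 without null replicates 1 and 2). That of Mrpl42 was lost without null RNA replicate 2 (adjusted p = 0.051). Without the trend on coding length the changes of Mrpl42 (-0.66, adjusted p = 0.0515) and Mrpl55 (-0.53, 0.139) were not called. The remaining large-subunit falls, in Mrpl39, Mrpl2, Mrpl52, Mrpl57, Mrpl14, Mrpl53, Mrpl58 and Mrpl18, ran from -0.68 to -0.36. Mrpl58 is a peptidyl-tRNA hydrolase that releases stalled chains and is also an integral subunit.

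The genes that rose in RNA were both of the large subunit. Mrpl27, a protein that reaches towards the peptidyl transferase centre in bacteria, had 8.19 and 7.15 CPM in WT and 17.4 and 17.9 CPM in null. Its RNA rose by 1.2 ± 0.18 on the log2 scale (adjusted p = 0.00121), and its groups were well separated. Mrpl1, the protein of the mobile stalk beside the tRNA exit site, had 29.6 and 35.1 CPM in WT and 50 and 53.2 CPM in null, a rise of 0.67 ± 0.12 (adjusted p = 0.00274). Both calls held in every alternative run. The proteins of the other stalk, which recruits translation factors, did not pass the test: Mrpl12 changed by -0.26 ± 0.13 and its anchor Mrpl10 by 0.14 ± 0.12. Mrps30 and Mrps18a, large-subunit proteins despite their symbols, had values of -0.27 ± 0.10 and -0.14 ± 0.14 that did not pass either.

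Of the 26 small-subunit genes, 9 fell in RNA (34.6%, beside 20.8% of all genes), with a median of -0.351. Mrps21 had 15.2 and 17.7 CPM in WT and 9.34 and 7.85 CPM in null, a fall of 0.93 ± 0.17 (adjusted p = 0.00351). Mrps28 had 10.9 and 9.46 CPM in WT and 5.05 and 6.36 CPM in null, a fall of 0.84 ± 0.19. Mrps15, the counterpart of a bacterial protein that binds rRNA early in small-subunit assembly, had 25.1 and 30.1 CPM in WT and 16.5 and 15.4 CPM in null, a fall of 0.79 ± 0.18. The groups of these 3 genes did not overlap. Without the trend on coding length the Mrps21 change was -0.40 and its call was lost (adjusted p = 0.0603). The Mrps28 call was lost without WT RNA replicate 1 (adjusted p = 0.0694) or null RNA replicate 1 (0.0805), and the Mrps15 call without WT RNA replicate 2 (0.0785) or null RNA replicates 1 (0.0547) and 2 (0.0748). Mrps35, Mrps34, Mrps26, Mrps6, Mrps18b and Mrps11 made up the rest, from -0.73 to -0.35. Of the 3 homologues of bacterial protein S18, Mrps18b of the small subunit fell (-0.50 ± 0.16, adjusted p = 0.0428), Mrps18c of the small subunit had 0.18 ± 0.17 and Mrps18a of the large subunit is given above.

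Mrps36 had the lowest log2 change of the 78. Its product was first counted as a ribosomal protein and is now placed in the 2-oxoglutarate dehydrogenase complex of the citric acid cycle, so it was kept out of both subunit groups. It lies on chromosome 13 from 100735940 to 100744659. Its RNA had 26.3 and 30 CPM in WT and 7.66 and 8.28 CPM in null, a change of -1.82 ± 0.40 (adjusted p = 0.00809), and the call was lost without null RNA replicate 1 (-1.76, adjusted p = 0.0607). Its footprints, at 12.8 and 25.6 CPM in WT and 15.8 and 7.8 CPM in null, spread widely and their groups overlapped (-0.74 ± 0.38, adjusted p = 0.189). Grouped by descent, 12 of the 47 genes with a bacterial counterpart fell (25.5%) and 2 rose (4.26%), with a median of -0.263. Of the 30 genes specific to mitochondria, 11 fell (36.7%), with a median of -0.364. Over all genes tested 20.8% fell and 16.5% rose. The difference between the groups by descent, and between the subunits, was not tested.

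**Figure D3:**
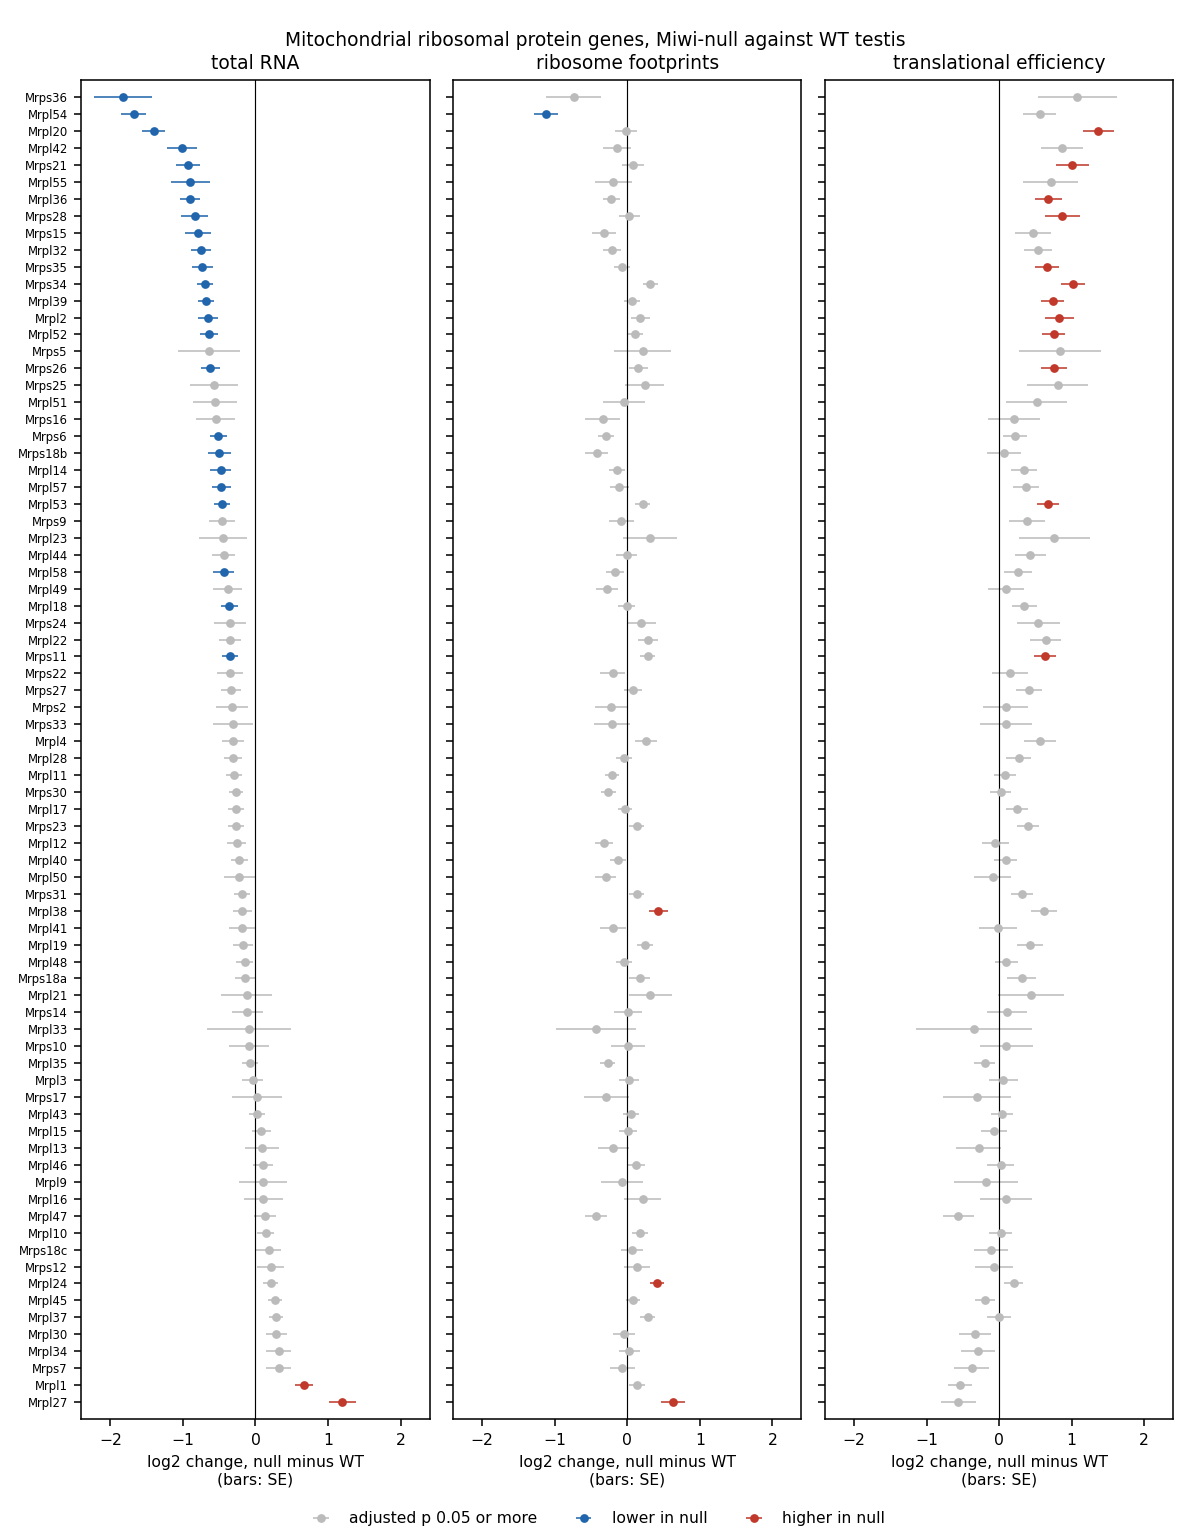
Log2 change, null minus WT, of the 78 genes in total RNA, footprints and translational efficiency, ordered by RNA change; points are edgeR estimates and bars their SE, with calls at an adjusted p under 0.05 in blue (lower) and red (higher). RNA calls are mostly lower (24 lower, 2 higher), footprint calls are few (1 lower, 3 higher) and TE calls are higher (12).

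Footprints asked whether ribosome engagement with these mRNAs differed. Only 4 of the 78 genes were called, 3 higher and 1 lower, where 25.4% of all genes were called, 12% higher and 13.4% lower. The median log2 change was -0.0111, beside -0.00464 over all genes. The summed footprints of the 78 genes were 4756 and 4982 CPM in WT and 5084 and 4825 CPM in null, so the groups overlapped. Both null libraries lay above both WT libraries in 15 members and below them in 15, where 28.3% and 29.3% of all genes did so. The small-subunit genes had a median of 0.017 and the large-subunit genes one of -0.0239. Between the same libraries, footprints of all 10 late spermatid markers fell, from 6710 and 6569 to 140 and 121 summed CPM, and those of 7 of 10 Leydig markers rose, from 2803 and 2740 to 8637 and 9523 CPM. Footprints also fell in 6 of 10 endothelial and blood markers (235 and 229 to 200 and 216 CPM), 4 of 10 Sertoli markers (4975 and 5289 to 4935 and 4807) and 4 of 10 myoid and stromal markers (726 and 720 to 487 and 499). They rose in 3 of 10 spermatocyte markers (2793 and 2945 to 3023 and 2968), fell in 2 of 10 spermatogonial markers (472 and 565 to 471 and 406) and had 2 lower and 1 higher among macrophage markers (345 and 359 to 326 and 317). The part of these shifts in the members' footprints was not tested.

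Mrpl54 was the gene with lower footprints. They went from 65.3 and 91.6 CPM in WT to 37.2 and 34.8 CPM in null, a fall of 1.12 ± 0.16 on the log2 scale (adjusted p = 0.00133). Its RNA fell as well, and the TE change of 0.56 ± 0.23 did not pass (adjusted p = 0.143). The call held in every alternative run. Mrpl27 had higher footprints, 12.6 and 11.1 CPM in WT and 15.5 and 21 CPM in null (0.63 ± 0.17, adjusted p = 0.0235), beside its higher RNA.

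Mrpl24 and Mrpl38 had higher footprints without a called RNA change. Mrpl24, a large-subunit protein beside the outer opening of the exit tunnel, had 251 and 272 CPM in WT and 364 and 331 CPM in null, a rise of 0.41 ± 0.09 (adjusted p = 0.0126). Mrpl38, a mitochondria-specific protein of the central protuberance, had 127 and 101 CPM in WT and 142 and 166 CPM in null, a rise of 0.43 ± 0.13 (adjusted p = 0.039). The groups of both genes were apart. These calls rested on few libraries: Mrpl27 was not called without null footprint replicate 2 (adjusted p = 0.148), and Mrpl24 was not called without null footprint replicate 1 (0.0679). Mrpl38 was lost without WT footprint replicate 2 (0.0979), null footprint replicate 2 (0.158) or any single RNA library (0.0792 to 0.0795).

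The footprint count moved with the library left out, to 7 without WT footprint replicate 1, 13 without WT footprint replicate 2 and 2 without null footprint replicate 2, where 23.1%, 31.8% and 18% of all genes were called. With the footprint libraries fitted alone 1 member was called (12.7% of all genes), and without TMM scaling 1 was higher and 2 were lower. The median also turned positive in some alternatives, at 0.101 without WT footprint replicate 1 and 0.075 with the coding-length trend removed.

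TE was compared as the interaction of genotype and assay, that is, the footprint change minus the RNA change. This contrast shares its RNA libraries with the RNA contrast and its footprint libraries with the footprint contrast. TE rose in 12 of the 78 genes, where 14.9% of all genes were called and 7.36% rose, and the median log2 change was 0.255, beside 0.0433 over all genes. No member was lower by edgeR's quasi-likelihood test at an adjusted p, where 7.56% of all genes were. At an unadjusted p under 0.05, 3 members were lower and 21 higher (14.7% and 16.1% of all genes), and DESeq2 called 11 higher and 0 lower. Both null TE levels lay above both WT levels in 31 members and below them in 12, where 24.6% and 32.6% of all genes did so. Each TE level divides footprint by RNA FPKM of the same replicate number, although the labels do not say that numbers pair libraries. FPKM carry no TMM scaling, so these levels are on another scale than the TE calls. The 12 genes with a called rise were Mrpl2, Mrpl20, Mrpl36, Mrpl39, Mrpl52 and Mrpl53 of the large subunit and Mrps11, Mrps21, Mrps26, Mrps28, Mrps34 and Mrps35 of the small subunit. In all 12 the RNA fell and the footprints were not called in either direction. Over all genes tested, 701 of the 1181 with higher TE had that pattern. Among the cell type markers, 9 of 10 late spermatid, 4 of 10 spermatocyte and 2 of 10 macrophage genes fell in TE. It rose in 4 of 10 Sertoli, 3 of 10 Leydig and 2 of 10 myoid and stromal genes. Spermatogonial markers and endothelial and blood markers each had 1 higher and 1 lower. The part of these shifts in the members' TE was not tested.

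Mrpl20 had the largest TE change. Its footprints were 129 and 102 CPM in WT and 104 and 123 CPM in null, so these groups overlapped while its RNA groups did not. Its TE level was 2.56 and 1.55 in WT and 4.22 and 5.39 in null, and the interaction was 1.37 ± 0.22 on the log2 scale (adjusted p = 0.0059). Mrps34, which is specific to mitochondria and needed for a stable small subunit, had RNA at 26 and 28.1 CPM in WT and 17.3 and 16.1 CPM in null. Its footprints were 20.5 and 21.7 CPM in WT and 26.4 and 26.2 CPM in null. Both null footprint values thus lay above the WT values although the change of 0.32 ± 0.11 was not called (adjusted p = 0.0633). The TE change of Mrps34 was 1.02 ± 0.16 (adjusted p = 0.00546); the transcript counted for it is annotated as a target of nonsense-mediated decay.

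The other 10 genes had TE changes from 0.63 to 1.01. Mrps21 rose by 1.01 ± 0.23 (adjusted p = 0.023), with footprints of 30 and 25.6 CPM in WT and 26.3 and 32.2 CPM in null. Mrps28 rose by 0.87 ± 0.24 (adjusted p = 0.0433), with a TE of 7.22 and 6.54 in WT and 11.6 in both null replicates. Mrpl52 rose by 0.75 ± 0.16 (adjusted p = 0.0161), with a TE of 7.51 and 7.57 in WT and 12.2 and 11.4 in null. These genes thus differ in where they start, Mrps28 and Mrpl52 being among the members with high TE in WT. Mrpl39, whose product is related to threonyl-tRNA synthetases, had the most footprints of the 12, 446 and 470 CPM in WT and 518 and 436 CPM in null, with a TE rise of 0.74 ± 0.16 (adjusted p = 0.0182). Mrpl2, a core protein close to the peptidyl transferase centre, rose by 0.83 ± 0.20 (adjusted p = 0.0264). Mrps26 rose by 0.76 ± 0.18 (adjusted p = 0.0284), Mrpl36 by 0.68 ± 0.19 (0.0425) and Mrpl53 by 0.67 ± 0.15 (0.0224).

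**Figure D4:**
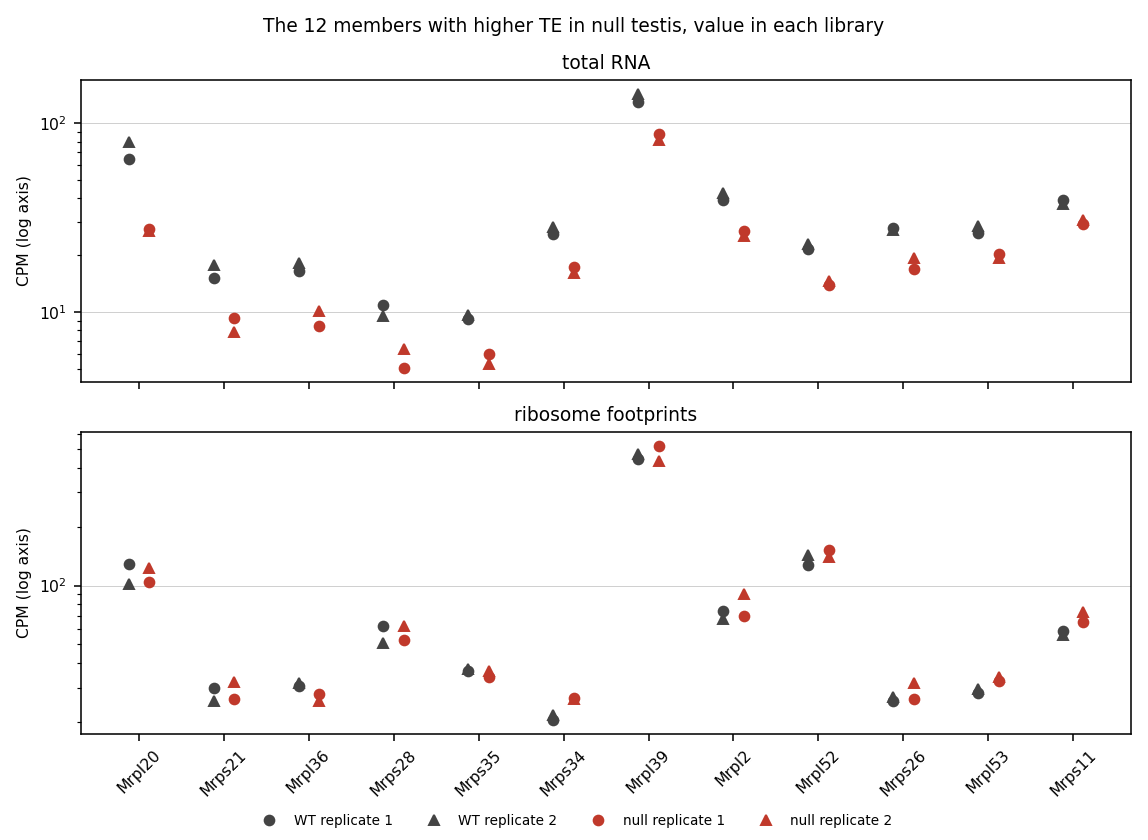
RNA (top) and footprints (bottom) in each library, in CPM on log axes, of the 12 genes with higher TE in null; black is WT, red is null, circles are replicate 1 and triangles replicate 2. Null RNA lies below WT RNA in each gene. The footprint groups of most genes overlap, as for Mrpl20 (129 and 102 CPM in WT, 104 and 123 CPM in null). Null footprints lie above WT in Mrps34, Mrps11 and Mrpl53 and below WT in Mrpl36 and Mrps35, without a call.

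The TE calls of Mrpl20 and Mrps34 held in every alternative run. The rest were less stable: with any single RNA library left out, 2 members were called in each case, where 3.8% to 5.99% of all genes were. The count was 5 without null footprint replicate 2 and 23 (21 higher, 2 lower) without WT footprint replicate 2, beside 10.2% and 22.4% of all genes. Without TMM scaling 4 were higher and 1 lower, but that setting also moved the median TE change of all genes from 0.0433 to -0.0986 and the split of all calls from 1181 higher and 1214 lower to 679 and 1648. A fit without the coding-length trend gave 6 higher and 1 lower, at a median of 0.093.

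**Figure D5:**
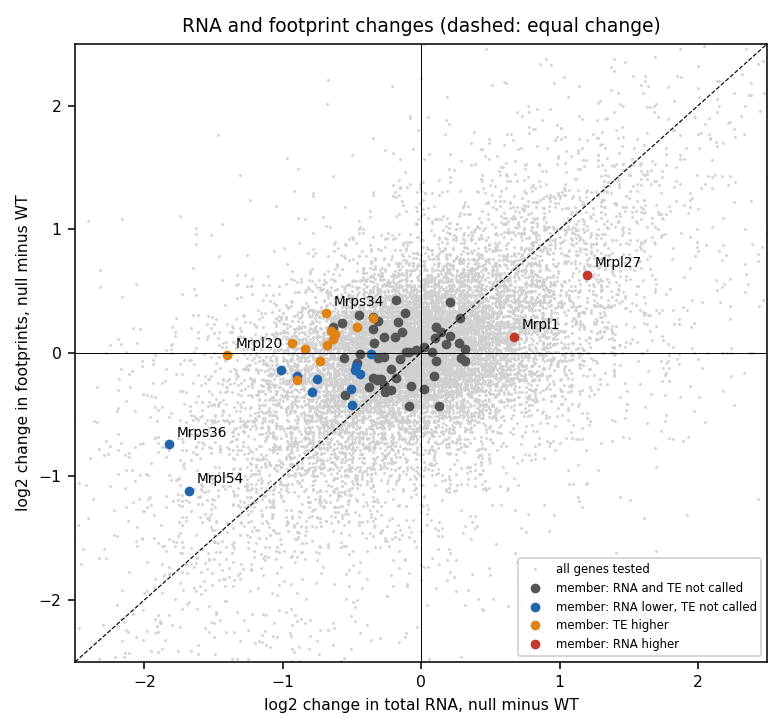
Log2 change in total RNA (x axis) against log2 change in footprints (y axis), null minus WT, for all 16051 genes tested (grey) and the 78 members (coloured by call); the dashed line marks equal change. Members called lower in RNA lie left of 0, most at footprint changes between -0.42 and 0.32, with Mrpl54 (-1.12) and Mrps36 (-0.74) below them. Mrps36, Mrpl54, Mrpl20 and Mrpl27 lie farthest from 0 in RNA.

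Set side by side, the contrasts sorted the members into few patterns, which is a description because TE is built from the other contrasts. RNA alone was lower in 11 genes (Mrpl14, Mrpl18, Mrpl32, Mrpl42, Mrpl55, Mrpl57, Mrpl58, Mrps6, Mrps15, Mrps18b and Mrps36), and RNA was lower with TE higher in the 12 named above. Mrpl54 was lower in RNA and footprints, Mrpl27 was higher in both, and Mrpl1 was higher in RNA alone. Mrpl24 and Mrpl38 were higher in footprints alone, and 50 genes were called in no contrast. Of all 16051 genes tested, 1262 were lower in RNA alone and 701 were lower in RNA with TE higher. Without a TE call, 937 were lower in RNA and footprints and 881 were higher in both. A further 1010 were higher in RNA alone, 608 were higher in footprints alone and 8410 were called in no contrast. The RNA and footprint changes correlated across the 78 genes at r = 0.459 (Spearman 0.216), beside 0.584 (0.478) over all genes. The authors' deposited table compares TE from merged replicates and marks genes from a 1.2-fold change without a replicate test. It marked 35 members up, 11 down and 32 unchanged. Its change is given per gene and, for some members, departs from that of the transcript used here. Mrpl15 was marked up (0.68), although its TE here was 2.12 and 2.16 in WT and 2.04 and 1.75 in null. These marks and the TE calls above are therefore not the same measure. The cytosolic ribosomal protein genes had 18 of 81 higher in TE, with a median of 0.385, and 3 higher and 3 lower in footprints.

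Of 5 subunits whose symbols lie outside the Mrpl and Mrps series, 2 fell in RNA and 1 rose in TE. Over all genes tested 20.8% fell in RNA and 7.36% rose in TE. Gadd45gip1, a protein of the large subunit by the exit tunnel, had RNA at 34.5 and 38 CPM in WT and 17 and 18.5 CPM in null, a fall of 1.03 ± 0.12 (adjusted p = 0.00028). Its footprints were 79.9 and 86.7 CPM in WT and 80.1 and 88.5 CPM in null, and its TE rose by 1.05 ± 0.16 (adjusted p = 0.00453). It thus had the pattern of the 12 members above. Aurkaip1 fell in RNA (-0.36 ± 0.12, adjusted p = 0.0443), while the small-subunit proteins Dap3, Ptcd3 and Chchd1 had RNA changes of -0.01, 0.27 and 0.09 that were not called.

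Other genes of mitochondrial gene expression were taken from fixed lists. Of 26 assembly and rRNA modification factors, 4 rose and 3 fell in RNA and 4 rose and 2 fell in footprints. Over all genes tested 16.5% rose and 20.8% fell in RNA, and 12% rose and 13.4% fell in footprints. Tfb1m, which methylates the small-subunit rRNA, fell by 0.93 ± 0.10 in RNA and 0.80 ± 0.10 in footprints on the log2 scale, and Nsun4, an rRNA methyltransferase that also acts in joining the subunits, by 1.5 ± 0.16 and 1.19 ± 0.20. The GTPase Mtg2 rose, by 1.32 ± 0.19 and 1.04 ± 0.19. Of 15 translation factors 2 rose and 2 fell in RNA: the initiation factor Mtif2 rose by 2.10 ± 0.14 and the elongation factor Tufm fell by 0.60 ± 0.12. Of 17 mitochondrial tRNA synthetases 3 fell in RNA (Aars2, Tars2 and Yars2, from -0.49 to -0.34). Of 10 genes of mitochondrial transcription and DNA maintenance 1 rose and 2 fell in RNA (median -0.112) and 1 rose and 1 fell in footprints (median -0.0371). Their lowest values were those of Tfam, which packages mitochondrial DNA and fell by 1.67 ± 0.15 in RNA and 3.46 ± 0.15 in footprints. In each of these lists most genes were not called in RNA. The shares called in RNA were, in the order given, 26.9%, 26.7%, 17.6% and 30%, beside 37.3% of all genes.

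Most transcripts that mitochondrial ribosomes translate were lower in the null testes. Of the 13 mitochondrially encoded mRNAs 12 were tested, of which 9 fell and 1 (mt-Co3) rose in RNA, with a median of -1.03. The summed RNA of all 13 went from 9861 and 10923 CPM to 6003 and 5796 CPM. In footprints 3 of the 12 (mt-Atp6, mt-Co2 and mt-Co3) had no count in any library. Of the 9 with counts 6 fell, with a median of -1.12, and the summed footprints went from 883 and 780 CPM to 413 and 382 CPM. The RNA of mt-Co3, the one that rose, was low, at 5.04 and 4.47 CPM in WT and 6.74 and 10.5 CPM in null. The transcript mt-Co1, for a subunit of cytochrome oxidase, had the largest part of both sums, 4603 and 5215 CPM of RNA in WT. It fell by 0.50 ± 0.09 in RNA and 1.09 ± 0.09 in footprints. The labels do not say whether the profiling protocol recovers mitochondrial ribosomes. How multiply mapping reads were counted is not given either. Whether the low mt-Co3 counts and the absent footprints come from the transcripts or from the counting was not tested.

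The members lie scattered through the genome. RefSeq placed all 78 (GRCm38.p6), on 17 chromosomes, with chromosome 11 holding the most, 11 genes. Of the 69 with a promoter window in RefSeq, 24 (34.8%) had the start of another protein-coding gene on the opposite strand within 1000 bases upstream, against 10.8% of the tested protein-coding genes with a window. These made 23 distinct pairs, with starts 32 to 935 bases apart (median 141). In 11 pairs neither gene was called in RNA. In Mrpl14 and Tmem63b (-0.48 and -1.07) and in Mrps18b and Ppp1r10 (-0.50 and -0.32) both fell. Mrpl27 rose while its neighbour Eme1, whose start lies 48 bases away, fell by 0.58 (adjusted p = 0.0429). Starts within 1000 bases of each other thus went with the same call in some pairs and not in others. The starts of Mrps18b and Ppp1r10 lie 756 bases apart. Whether genes with close starts change together was not tested.

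A pair made of a small- and a large-subunit gene, Mrps11 and Mrpl46, has starts 42 bases apart on chromosome 7. Mrps11 RNA had 39 and 37.5 CPM in WT and 29.2 and 30.8 CPM in null, a fall of 0.35 ± 0.11 (adjusted p = 0.0307). Mrpl46 RNA had 16.3 and 17.4 CPM in WT and 17.6 and 18.4 CPM in null, a change of 0.10 ± 0.14 that was not called. The whole stretch between both starts is shown because the pair shares it, on the strand of Mrps11, from RefSeq at chr7:78783090-78783130 (GRCm38.p6), with a GGGCGG box of the SP family in capitals.
Mrps11 to Mrpl46 stretch: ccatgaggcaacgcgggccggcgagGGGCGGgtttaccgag

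Promoters were searched on both strands, from 250 bases before to 50 after the RefSeq start, for 5 motifs of factors known at housekeeping and mitochondrial genes. The YY1 motif AAGATGGC was in 12 of 69 members' windows (17.4%), beside 4.07% of tested genes with a window. The ETS motif CCGGAAGT was in 11 (15.9%), beside 7.28%, and the NRF1 palindrome (the first run of capitals in the Mrpl32 line) in 3 (4.35%), beside 1.81%. The SP motif GGGCGG was in 34 (49.3%), beside 58.9%, and the CRE motif TGACGTCA in 2 (2.9%), beside 2.96%. Over all 27025 promoters of the table the shares were 2.88%, 4.0%, 0.977%, 35.9% and 1.88%. By response, YY1 was in 4 of the 20 windows of members with lower RNA and in 8 of the 47 not called, ETS in 3 and 7, NRF1 in 2 and 1, SP in 13 and 20, and CRE in 0 and 2. The difference between these groups was not tested. These are matches of letters, not shown sites.

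The 100 bases before the start are shown for 3 members whose RNA fell, to set stretches with and without these motifs side by side. Each is given on the gene's own strand, 5′ to 3′, with motif matches in capitals. They are part of the 300 bases searched, so a stretch without a match need not mean a window without one. Mrpl32 (chr13:14613038-14613137, minus strand) holds NRF1 and SP matches. Mrps26 (chr2:130563657-130563756, plus strand) holds SP and ETS matches on the opposite strand. Mrpl20 (chr4:155802778-155802877, plus strand), with the largest TE change, holds none of the 5 in this stretch.
Mrpl32: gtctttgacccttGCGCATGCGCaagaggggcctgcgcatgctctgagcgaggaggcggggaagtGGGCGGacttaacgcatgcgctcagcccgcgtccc
Mrps26: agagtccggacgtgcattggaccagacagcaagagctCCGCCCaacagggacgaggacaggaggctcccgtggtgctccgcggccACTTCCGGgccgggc
Mrpl20: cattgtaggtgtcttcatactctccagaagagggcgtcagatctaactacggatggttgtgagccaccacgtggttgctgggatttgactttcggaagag

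Some counts are uncertain by position or copy. In RefSeq 20 members overlap another protein-coding gene. Those named above are Mrpl2, Mrpl14, Mrpl18, Mrpl19, Mrpl24, Mrpl27, Mrpl49, Mrpl53, Mrpl57, Mrps6 and Mrps18a. Without a stated strand in the counting, reads of overlapping genes cannot be told apart. Mrpl23, Mrpl27, Mrpl48 and Mrps36 have a named pseudogene in RefSeq, which could take or give reads.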

How the data were processed

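The authors deposited whole-number fragment counts per transcript for total RNA and footprints, per the file headers, with a table per replicate number and a merged table whose 4 count columns were exact sums of the replicates. The deposited FPKM values are those counts per coding length and library total (lengths are multiples of 3 in 84.7% of all transcripts in the tables, in 99.4% of those tested and in 78 of 78 members, so those used here are taken as coding lengths), and the authors' TE is the ratio of footprint to RNA FPKM. The authors also deposited a log2 fold change of TE, with a mark from 1.2-fold, without a replicate test. Build GRCm38 and the tools STAR 2.5.0a, Bowtie 1.2.2 and cutadapt 2.5 are listed, without roles, per the submitters' processing notes. Not given in the sources used here are the counting program, its strand setting and its handling of multiply mapping reads.

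Each of the 21949 genes was represented by the transcript with the highest mean count over the 8 libraries, the canonical one for 73 of the 78 members. Genes were kept by filterByExpr (minimum count 10, minimum total 15), which left 16051. A quasi-likelihood model with robust dispersion (edgeR 4.0.16, R 4.3.3) was fitted to 4 group means over 8 libraries with TMM scaling, leaving 4 residual degrees of freedom. Contrasts gave null minus WT in RNA, in footprints and in TE (the interaction), with calls made when the Benjamini-Hochberg adjusted p over all genes tested was under 0.05. SEs come from that model, whose dispersion is shared by both assays: among genes with a mean CPM of 10 or more, the SE had a median of 0.135 in RNA and 0.131 in footprints, although footprint replicates spread more. Changes are relative to the bulk of genes, since no absolute amount was measured.

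The members, lists and alternatives were chosen with earlier results of these data known. Named members were, per contrast and direction, up to 10 with the largest change among those called, the 5 highest and 5 lowest in WT RNA level and in WT TE, and a few subunits of interest (stalk proteins, the S18 homologues, Mrps30, Mrps36). Other genes named were chosen after their values were seen. Scripts were tested on simulated data. Sequences and gene positions came from RefSeq tables (GRCm38.p6).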

Additional observations from a re-analysis of the deposited data

How the results depend on the processing

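Alternatives covered scaling, the count filter, the choice of transcript, DESeq2 1.42.0, each assay alone, a coding-length trend, a replicate block and leaving out each library. Of 26 calls of named members, 9 held in all of them: Mrpl20, Mrpl27, Mrpl1, Mrpl32, Mrpl36 and Mrpl54 in RNA, Mrpl54 in footprints and Mrpl20 and Mrps34 in TE. No call of a named member changed sign. Members called in RNA (26) became 45 with RNA fitted alone and 14 to 33 with 1 library left out. The RNA median (-0.308) was -0.211 without TMM, -0.269 with DESeq2 or its size factors, -0.242 with TMM within each assay, -0.246 with RNA alone, -0.331 with counts summed over transcripts, -0.077 with the length trend removed and -0.328 to -0.241 with 1 library left out. Members called in footprints (4) became 1 with footprints alone, 8 with the length trend removed and 2 to 13 with 1 library left out, and the footprint median ran from -0.065 to 0.101. Members called in TE (12) became 5 without TMM, 7 with the length trend removed and 2 to 23 with 1 library left out, and the TE median (0.255) was 0.113 without TMM and 0.093 with the length trend removed. Where a call or value moved, the cause was not tested.

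The replicate numbers in the labels say nothing of shared animals or days. With the number as a replicate block, 20 members were called in RNA, 2 in footprints and 3 in TE (31.3%, 19.1% and 7.71% of all genes). Deviations of same-numbered libraries correlated at 0.008 between the RNA groups and at -0.831 between the footprint groups (10171 genes). A crossed replicate block, chosen after seeing the data because of that negative value, gave 50 calls in RNA, 35 in footprints and 39 in TE among the members, where 56.7%, 51% and 40.7% of all genes were called.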
